A study of Sus scrofa with 40 samples.

Results

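Feed restriction was examined in the liver of pigs selected for low residual feed intake (RFI), the line that eats less than its growth and maintenance predict and is therefore called feed-efficient. The members were the arrays titled as liver of low RFI pigs, 10 of the 40 arrays in the series, with all 23999 probe sets that are not controls. The tested animals were 5 low RFI gilts fed at 80% of maintenance for 8 days, and their reference was 5 low RFI gilts with free access to feed. All were prepubertal Yorkshire gilts 6 months of age. Both groups were chosen as heterozygotes at MC4R, a melanocortin receptor of the appetite circuit, so the ad libitum pigs carry the same variant as the restricted pigs. The label of ad libitum pig 2 says only that specific genotypes were taken. High RFI gilts on the same 2 diets (5 liver arrays each) and backfat over rib 10 of the same low RFI groups (5 arrays each) served to show where low RFI liver differed. The high RFI liver arrays also entered the filter and the estimate of spread of the main test. The labels do not say which liver and backfat arrays come from 1 pig, nor whether each array is a separate animal beyond the stated 20 gilts, so p-values measure the spread between arrays.

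The liver adjusts to feed supply through several linked programmes. In the fed state, insulin drives the enzymes that turn acetyl units into fatty acids and triglycerides, and in food shortage these enzymes are withdrawn while fat oxidation and glucose production take over. Hepatocytes are also secretory cells: ribosomes on the endoplasmic reticulum (ER) make plasma proteins, which chaperones fold, sugar chains decorate and coated vesicles carry onward. Meal timing and glucocorticoids set further genes, including those of the circadian clock.

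Values are array intensities, scaled by the authors, and changes are log2 differences, restricted minus ad libitum pigs. A probe set passed the threshold when its limma p-value, after Benjamini-Hochberg adjustment across the 15677 liver probe sets tested, was under 0.05. The labelled tissue was checked against its defining markers. All 19 hepatocyte markers on the array were tested, and their mean log2 intensity was 14.4 ± 0.235 in restricted pigs and 14.5 ± 0.0303 in ad libitum pigs (SD, n = 5 each). Adipocyte, skeletal muscle and exocrine pancreas markers were mostly too dim to test (6 of 9, 14 of 17 and 7 of 8). On both diets, pigs 1 and 2 differed in bulk from pigs 3 to 5. After subtraction of the group means, a first principal component with 30.0% of the variance was below 0 in every array of pigs 1 and 2 and above 0 in every array of pigs 3 to 5, with restricted pig 5 farthest out. The 3′ over 5′ signal of the actin control probe sets, as a log2 ratio, was 1.56 ± 0.616 in restricted and 1.85 ± 0.611 in ad libitum pigs (SD, n = 5 each, exact permutation p = 0.460, adjusted p = 0.806 over 14 measures, two-sided), lower in the restricted array of all 5 numbers. Arrays of the same number deviated together, but so did arrays of different numbers within pigs 1 and 2 and within pigs 3 to 5. Results with the replicate number as a block are given beside those without it where the call of a named gene differs.

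Restriction changed few probe sets past the threshold in low RFI liver. Of 15677 tested, 21 passed (0.134%), 5 higher (0.0319%) and 16 lower (0.102%) in restricted pigs. With the replicate number as a block 66 passed (0.421%), 17 higher (0.108%) and 49 lower (0.313%), and these held all 21. The block was 1 effect per replicate number, shared by all liver groups, high RFI included. With the block on the 10 low RFI liver arrays alone, 0 passed by limma, with 2008 at an unadjusted p under 0.05. The 21 pointed the same way in all 5 number pairs, and in 19 of them no restricted pig overlapped any ad libitum pig. They were chosen on these same values, which favours both patterns. The share of all probe sets that pointed the same way in all 5 pairs was not counted. Complete separation was met in 147 of all probe sets with restricted pigs higher (0.938%) and in 178 with restricted pigs lower (1.14%). Changes of over 2-fold were found in 2 of the higher and 9 of the lower probe sets. The median change over all tested probe sets was -0.00, and 49.7% of them lay above 0. Of those with 1 symbol, from which the gene lists were drawn, 53.9% lay above 0. At an unadjusted p under 0.05 by limma there were 1577 probe sets (10.1%), 776 higher (4.95%) and 801 lower (5.11%).

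The count depends on which arrays share the estimate of spread. Fitted on the 10 low RFI liver arrays alone, 2 probe sets passed, ECHDC1 (limma adjusted p = 0.018) and LOC100154873 (limma adjusted p = 0.0107) by limma. Without restricted pig 5, 14 passed, 12 of them among the 21. Without ad libitum pig 3, ad libitum pig 5 or restricted pig 3, 7, 9 or 12 passed. Within numbers 3 to 5, 13 passed, and within numbers 1 and 2 none did by limma, with 1293 at an unadjusted p under 0.05.

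Of the 21 probe sets 12 carry 1 gene symbol, 9 of them lower and 3 higher in restricted pigs. The named genes that fell with restriction act in lipid and acyl metabolism (ECHDC1 and ME1), the matrix and collagen synthesis (COL6A3 and TRAM2), glucocorticoid and clock output (TSC22D3 and USP2), signalling to translation (MKNK1) and DNA replication (TOP2A), and CCDC28A completes them. Those that rose, PGM3, RPLP2 and LOC100154873, include a sugar nucleotide enzyme and a ribosomal protein. The plot of called genes by array shows them all.

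**Figure D1:**
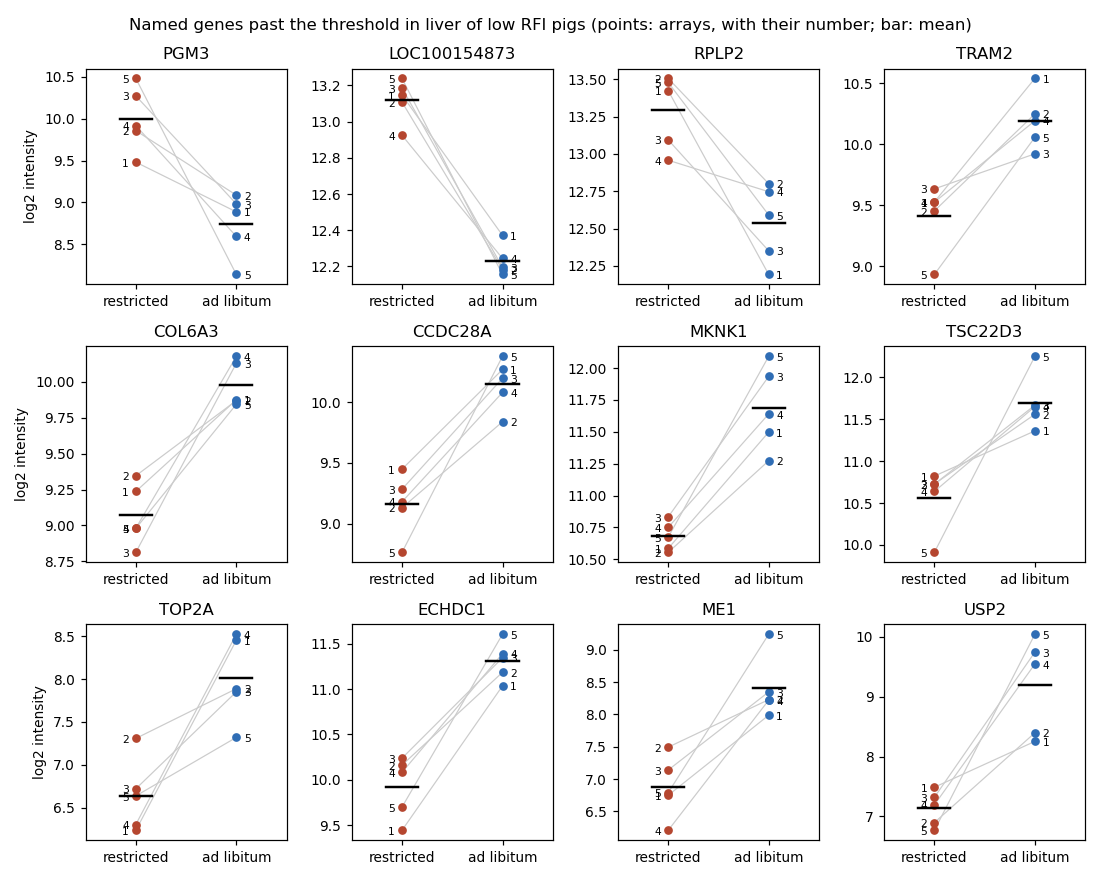
Log2 intensity of the 12 named genes past the threshold in low RFI liver, with restricted arrays on the left and ad libitum arrays on the right of each panel; digits are replicate numbers, lines join arrays of the same number and bars are means of 5 arrays. In all 12 panels the groups do not overlap, and the changes run between -2.07 (USP2) and 1.27 (PGM3).

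ECHDC1 encodes a decarboxylase that removes ethylmalonyl-CoA, a side product of acetyl-CoA carboxylase. Its intensity was 697, 1146, 1208, 1085 and 832 in restricted pigs 1 to 5, against 2098, 2326, 2599, 2682 and 3110.4 in ad libitum pigs 1 to 5. The highest restricted pig lay well below the lowest ad libitum pig. The gene fell 2.61-fold (log2 -1.38, SE 0.192, limma adjusted p = 0.00493), and of the named calls it was the one lost least often, in 2 of 22 alternatives.

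ME1, the cytosolic malic enzyme that supplies NADPH for fatty acid synthesis, had intensities of 108, 180.3, 141, 73.9 and 111 in restricted pigs and 254, 300.1, 326, 298 and 605 in ad libitum pigs. The groups were apart, with ad libitum pig 5 far above its group. ME1 fell 2.89-fold (log2 -1.53, SE 0.303, limma adjusted p = 0.044), close to the threshold, and the call was lost in 14 of 22 alternatives, among them the fit without restricted pig 5 (limma adjusted p = 0.0921).

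USP2, a deubiquitinase with a strong daily rhythm in mouse liver, showed the largest named decrease. Restricted pigs had intensities of 179, 119, 159.5, 146 and 109, against 305, 337, 859, 748 and 1057 in ad libitum pigs. Restricted pigs were close together, while ad libitum pigs 3, 4 and 5 were each more than 2-fold above ad libitum pigs 1 and 2. The fall was 4.19-fold (log2 -2.07, SE 0.383, limma adjusted p = 0.0239); with the block the limma adjusted p was 0.00747, and without restricted pig 5 it was 0.0711.

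TSC22D3, also called GILZ, a glucocorticoid-induced regulator of transcription, measured 1810.0, 1695, 1692, 1594 and 962 in restricted pigs and 2631, 3018, 3255, 3217 and 4878 in ad libitum pigs. Restricted pig 5 was the lowest and ad libitum pig 5 the highest. TSC22D3 fell 2.19-fold (log2 -1.13, SE 0.182, limma adjusted p = 0.0111), and it passed without restricted pig 5 as well (limma adjusted p = 0.0149).

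MKNK1 encodes a kinase that phosphorylates the cap-binding factor eIF4E. In restricted pigs its intensities were 1536, 1503, 1823, 1722 and 1632, against 2892, 2475, 3914, 3192 and 4367 in ad libitum pigs. The restricted values were tightly grouped below all ad libitum values. MKNK1 fell 2.01-fold (log2 -1.01, SE 0.174, limma adjusted p = 0.0157), and CCDC28A, a coiled-coil protein, fell 1.99-fold (log2 -0.99, SE 0.162, limma adjusted p = 0.0111), with intensities of 698, 561, 623, 580.0 and 435 in restricted and 1232, 915, 1172, 1082 and 1329 in ad libitum pigs.

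COL6A3, the alpha 3 chain of collagen VI, had 603, 651, 449.7, 505 and 505 in restricted pigs and 938, 935, 1119, 1157 and 918 in ad libitum pigs. All restricted pigs lay below all ad libitum pigs, and the fall was 1.87-fold (log2 -0.91, SE 0.14, limma adjusted p = 0.00955). TRAM2, an ER membrane protein linked to collagen synthesis, had 738, 701, 795, 737 and 489 in restricted and 1489, 1217, 969.7, 1170.0 and 1065 in ad libitum pigs. It fell 1.71-fold (log2 -0.78, SE 0.155, limma adjusted p = 0.044) and lost the call in 16 of 22 alternatives, the fit without restricted pig 5 among them (limma adjusted p = 0.101).

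TOP2A, the topoisomerase of dividing cells, had low intensities, with 75.4, 158, 105, 79.01 and 99.5 in restricted pigs and 351, 237, 231, 368 and 159.8 in ad libitum pigs. The lowest ad libitum pig was only just above the highest restricted pig. TOP2A fell 2.58-fold (log2 -1.37, SE 0.251, limma adjusted p = 0.0239).

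PGM3, the mutase on the way to UDP-N-acetylglucosamine, measured 715, 929, 1238, 968 and 1432 in restricted pigs, against 474, 544, 506, 386 and 282 in ad libitum pigs. The gap between the groups was widest for number 5 and narrowest for number 1. PGM3 rose 2.4-fold (log2 1.27, SE 0.238, limma adjusted p = 0.0262), and the limma adjusted p was 0.0815 without restricted pig 5.

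RPLP2, an acidic protein of the ribosomal stalk, had 10993, 11634, 8746, 7957 and 11414 in restricted pigs and 4681, 7133, 5223, 6874 and 6169.8 in ad libitum pigs. Restricted pig 4 was the nearest to the ad libitum pigs. RPLP2 rose 1.69-fold (log2 0.76, SE 0.136, limma adjusted p = 0.0208). LOC100154873, which the annotation leaves without a gene name, was tightly grouped on each diet, with 9070.0, 8831, 9315, 7776 and 9669 in restricted and 5299, 4647, 4687, 4850.4 and 4562 in ad libitum pigs, and rose 1.86-fold (log2 0.89, SE 0.165, limma adjusted p = 0.0239). RPLP2, LOC100154873 and PGM3 each lost the call in 11 of 22 alternatives. Another 8 probe sets past the threshold have no symbol and 1 has several. The largest of these changes was -1.65 (SE 0.237, limma adjusted p = 0.00493), at a probe set without a symbol.

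Of 17 fatty acid synthesis genes tested in low RFI liver, ME1 alone passed the threshold, although most of the others also had values below 0. The list holds 24 genes, 18 of them on the array, and 16 of the 17 tested lay below 0, with a median of -0.65 beside -0.00 over all probe sets. ACSS2, which makes acetyl-CoA from acetate, had a change of -1.50 (SE 0.325, limma adjusted p = 0.0691). FASN, the synthase of palmitate, had -1.24 (SE 0.395, limma adjusted p = 0.251), and the elongase ELOVL6 had -1.31 (SE 0.425, limma adjusted p = 0.261). SCD, the stearoyl-CoA desaturase, was at -0.99 (SE 0.473, limma adjusted p = 0.489).

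The size of the lipogenic change varied widely between number pairs. ACSS2 intensities were 716, 836, 1541, 1095 and 1202 in restricted pigs and 1402, 2247, 3085, 4616 and 4959 in ad libitum pigs. All restricted pigs but number 3 lay below every ad libitum pig. FASN intensities were 1231, 1243, 3975, 2437 and 1866 in restricted pigs, against 1881, 2359.9, 7096, 8263 and 7815 in ad libitum pigs. Each restricted pig lay below its number partner, yet restricted pig 3 was above ad libitum pigs 1 and 2, so the groups overlapped. ELOVL6 had 2598, 4433, 3489.8, 6391 and 839 in restricted and 8318, 5813, 3452, 11275 and 10784 in ad libitum pigs, with restricted pig 5 the lowest and number 3 showing no decrease.

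Averaged over the list, the restricted minus ad libitum difference was -0.07, -0.05, -0.25, -1.02 and -1.95 for numbers 1 to 5. Fitted separately, pigs 3 to 5 gave a list median of -0.92 and pigs 1 and 2 one of 0.00. Without restricted pig 5 it was -0.27. The actin ratio was 1.93 to 2.55 in pigs 1 and 2 and 1.11 to 1.47 in pigs 3 to 5, and its part in this difference was not tested.

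Among triglyceride genes, LPIN1, a phosphatidate phosphatase and coactivator, had intensities of 974, 509, 313, 167 and 510.0 in restricted pigs and 949, 943, 2304, 1643 and 3332 in ad libitum pigs. For number 1 the 2 pigs were nearly equal, whereas numbers 3 to 5 were far apart. The change was -1.95 (SE 0.409, limma adjusted p = 0.0573), just outside the threshold, and LPIN1 passed with the block (limma adjusted p = 0.0457). The other LPIN1 probe set gave -1.85 (limma adjusted p = 0.0872), in the same direction. DGAT2, which completes triglyceride synthesis, stood at -0.57 (SE 0.369, limma adjusted p = 0.674), but at -0.04 without restricted pig 5, whose intensity of 631 was far below the 2942 to 4638 of the other restricted pigs. The 14 tested members of this list had a median of -0.17, and -0.05 without restricted pig 5.

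Cholesterol synthesis had no member of 13 past the threshold and a median of -0.21. TM7SF2, a sterol reductase, had -0.95 (SE 0.306, limma adjusted p = 0.26), and SC5D, a sterol desaturase, had -0.64 (SE 0.178, limma adjusted p = 0.165) with no overlap between the groups (10149.6, 8734, 7124, 10026 and 4704 in restricted and 12694, 12724, 11486, 11198 and 13068 in ad libitum pigs). The list mean differed in direction between numbers, 0.57 for number 1 and -0.72 for number 5. ADIPOR2, the adiponectin receptor of liver, missed the threshold narrowly with 2972, 2944, 2512, 2701 and 1841 in restricted pigs, against 4738, 3805, 4358, 5169.8 and 6095 in ad libitum pigs. Its groups did not overlap, and the change was -0.90 (SE 0.184, limma adjusted p = 0.0517). A second ADIPOR2 probe set gave -0.21 (limma adjusted p = 0.802).

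Of 25 tested genes of protein folding in the ER (49 listed), 24 lay above 0, but none passed the limma threshold with or without the block. By limma 11 of the 25 had an unadjusted p under 0.05, all higher, against 4.95% of all probe sets higher at that level. The list median was 0.32, and it was 0.46 in pigs 3 to 5 alone, 0.38 in pigs 1 and 2 alone and 0.28 without restricted pig 5. MANF, a protein secreted under ER stress, had intensities of 4023, 5522, 4523, 3512 and 9643 in restricted pigs and 1280.4, 3481, 2618, 2899 and 1574 in ad libitum pigs. The groups were separate by a narrow margin, with restricted pig 5 far above the rest, and the change was 1.20 (SE 0.263, limma adjusted p = 0.0691).

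XBP1, a transcription factor of the unfolded protein response, had 7338, 6883, 7725, 7727 and 12549 in restricted pigs, against 4907, 5803, 6089.6, 5639 and 4754 in ad libitum pigs. Restricted pig 5 again stood above the others, while the remaining restricted pigs still exceeded every ad libitum pig. The change was 0.60 (SE 0.141, limma adjusted p = 0.0844), and 0.45 without restricted pig 5. HSPA5, the ER chaperone BiP, measured 17061, 19205, 16199, 15194 and 23130.3 in restricted and 9418, 15384, 12621, 12250.1 and 8839 in ad libitum pigs. Restricted pig 4 lay just below ad libitum pig 2, so the groups overlapped (log2 0.65, SE 0.169, limma adjusted p = 0.135). SDF2L1, a partner of BiP, had a change of 1.17 (SE 0.298, limma adjusted p = 0.125). The list mean difference was 0.47, 0.24, 0.43, 0.05 and 1.09 for numbers 1 to 5.

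The sugar donors and enzymes of N-glycosylation had PGM3 as the only call among 35 tested of 48 listed genes, with a median of 0.17. GMPPB, which makes GDP-mannose, had the largest increase among the named genes but missed the threshold (log2 2.00, SE 0.488, limma adjusted p = 0.102). Its probe set was dim, with 132, 134, 178, 81.01 and 468 in restricted and 66.5, 20.7, 71.7, 19.1 and 62.6 in ad libitum pigs. The groups did not overlap, but the ad libitum values were spread over a more than 3-fold range. SLC35B1, a transporter of the ER membrane, was also without overlap (log2 0.74, SE 0.2, limma adjusted p = 0.151).

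Of 46 tested genes of ER translocation and early secretion, 41 lay above 0, with a median of 0.31. None passed without the block, and LRRC59, a ribosome-associated ER membrane protein, passed with it (log2 1.02, SE 0.238, limma adjusted p = 0.0872; limma adjusted p = 0.0493 with the block). Unadjusted, 27 of the 46 were higher at p under 0.05 by limma, against 4.95% of all probe sets. SEC23B, an inner coat protein of the vesicles that leave the ER, had 1285, 1624, 1359, 1042 and 2269 in restricted pigs and 668, 1025, 812, 714 and 629 in ad libitum pigs. All restricted pigs exceeded all ad libitum pigs, and the change was 0.95 (SE 0.199, limma adjusted p = 0.0573).

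TFG, which organises ER exit sites (log2 0.49, SE 0.106, limma adjusted p = 0.0691), and RRBP1, a ribosome receptor of rough ER (log2 0.83, SE 0.19, limma adjusted p = 0.0782), stand outside that list and missed the threshold in the same direction. TRAM1, a partner of the translocation channel, also missed it (log2 0.51, SE 0.112, limma adjusted p = 0.0691). TFG passed with the block (limma adjusted p = 0.0493). The brightest TRAM1 probe set, which represents the gene in the list, gave 0.24 (limma adjusted p = 0.415). The plot of list medians shows the ER groups at the top and fatty acid synthesis at the bottom.

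**Figure D2:**
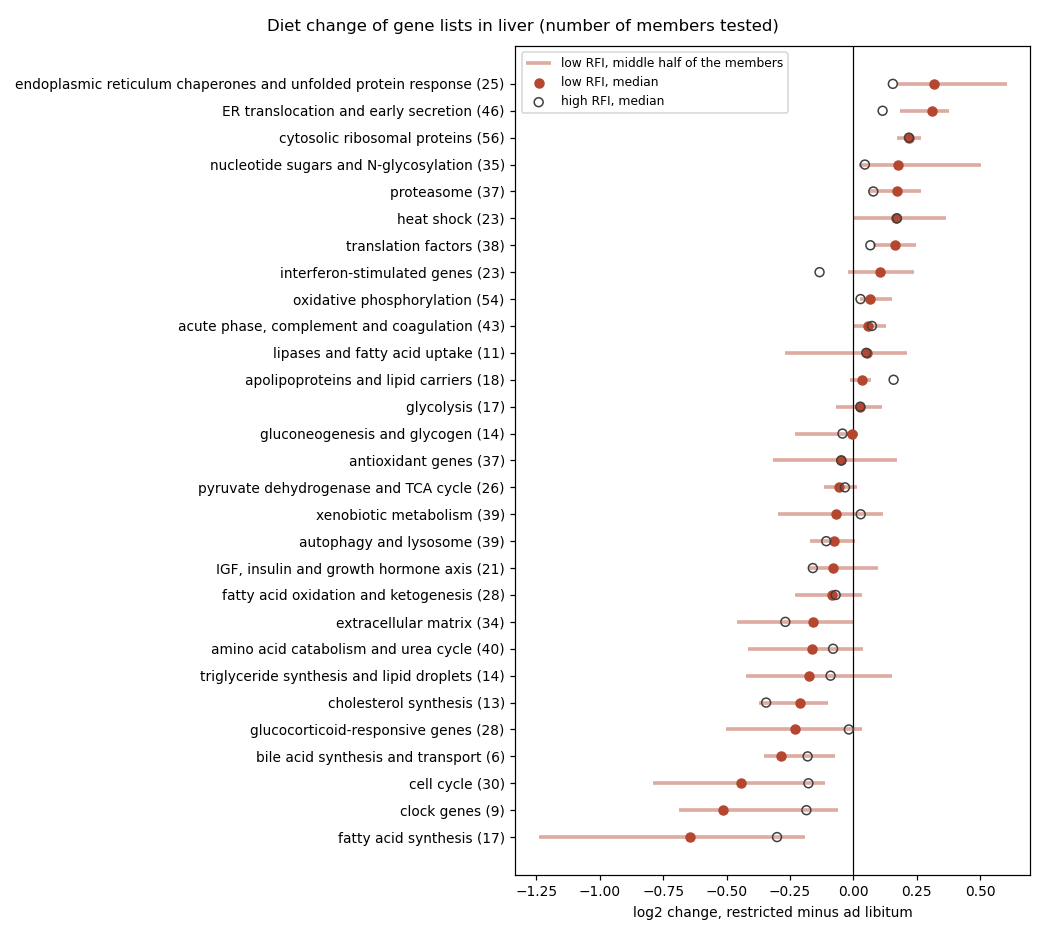
Median log2 change, restricted minus ad libitum, of 29 gene lists in low RFI liver (filled points, with bars over the interquartile range of the members) and in high RFI liver (open points); the number of members tested is in brackets. Low RFI medians run between -0.65 for fatty acid synthesis and 0.32 for ER chaperones.

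Cytosolic ribosomal protein genes had small values, nearly all above 0. Of 79 listed genes 59 were on the array and 56 were tested. RPLP2 rose without the block and RPS12 joined it with the block. Of the 56 genes 55 lay above 0, with a median of 0.22, or 0.16 under quantile normalization. By limma 29 were higher at an unadjusted p under 0.05, against 4.95% of all probe sets. RPS12 measured 20342, 21065, 18736, 23589 and 21698 in restricted and 16462, 17343, 15688, 15923 and 15528 in ad libitum pigs, with no overlap (log2 0.38, SE 0.0908, limma adjusted p = 0.095; limma adjusted p = 0.0306 with the block). RPL24, of the large subunit, had 0.32 (SE 0.0857, limma adjusted p = 0.15), and RPLP1, the stalk partner of RPLP2, had 0.36 (SE 0.0977, limma adjusted p = 0.15). An RPS18 probe set passed with the block (log2 0.47, SE 0.103, limma adjusted p = 0.0691; limma adjusted p = 0.0119 with the block), but the brightest RPS18 probe set stood at -0.11 (limma adjusted p = 0.935). Ribosomal protein genes have many processed copies in mammalian genomes, so their probe sets may measure related sequences together.

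Translation factors (median 0.16 over 38) and proteasome subunits (median 0.17 over 37) had no member past the threshold with or without the block. EEF1D, a nucleotide exchange factor of elongation, had 0.43 (SE 0.123, limma adjusted p = 0.168), and the initiation factor subunit EIF2B2 had -0.40 (SE 0.139, limma adjusted p = 0.292). PSMA4, a core proteasome subunit, showed no overlap between restricted (3907, 3450.4, 3431, 3953 and 4361) and ad libitum pigs (3151, 3342, 2599, 2947 and 2749), with 0.37 (SE 0.0962, limma adjusted p = 0.135). The heat shock list, which also names mitochondrial chaperones and heat shock factors, had a median of 0.17 over 23 tested. TCP1, a subunit of the cytosolic chaperonin, passed with the block (log2 0.55, SE 0.138, limma adjusted p = 0.118; limma adjusted p = 0.0281 with the block), and HSPA4 and DNAJB1, an Hsp70 relative and an Hsp70 partner, had changes of 0.48 and 0.49 (limma adjusted p = 0.203 and 0.268). A second HSPA4 probe set gave -0.09 (limma adjusted p = 0.909). A probe set of HSP90AA1, the inducible cytosolic Hsp90, passed with the block in the other direction (log2 -0.63, SE 0.150, limma adjusted p = 0.0920; limma adjusted p = 0.0457 with the block), without overlap and lower in all 5 pairs, and it is named after its value was seen. The brightest HSP90AA1 probe set, which represents the gene in the list, had a change of 0.30 (SE 0.119, limma adjusted p = 0.372). BCS1L, which helps assemble respiratory complex III, also passed only with the block (log2 0.89, SE 0.204, limma adjusted p = 0.0782; limma adjusted p = 0.0271 with the block).

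The ribosomal list differed by 0.18, 0.12, 0.28, 0.43 and 0.12 for numbers 1 to 5, and the heat shock and proteasome lists by between 0.08 and 0.29. These were small for all numbers and never below 0. The ER and lipogenic lists had their largest differences at number 5.

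**Figure D3:**
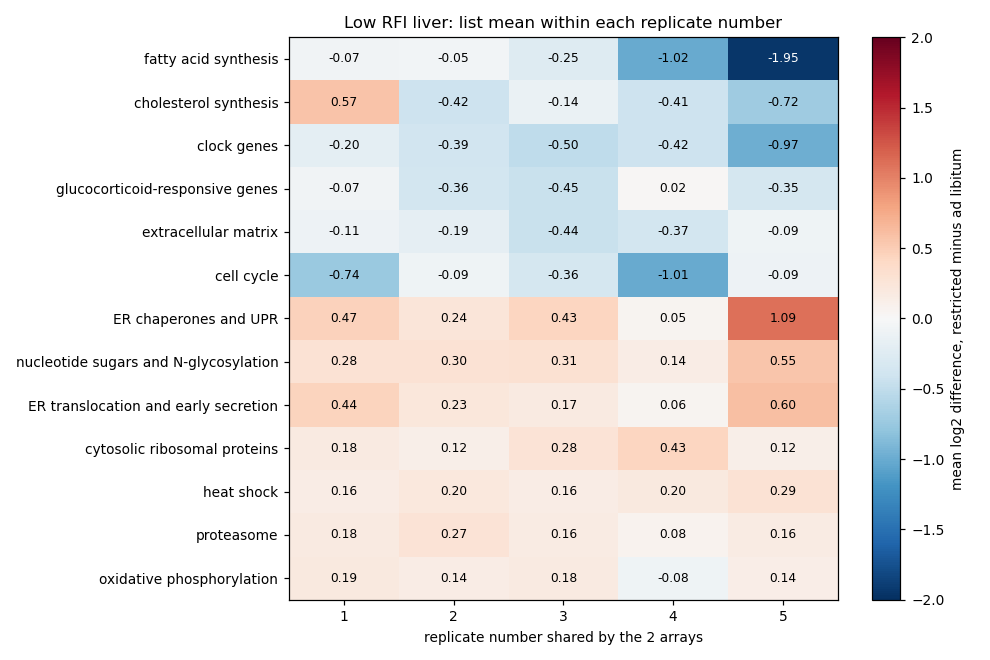
Mean log2 difference, restricted minus ad libitum, over the tested members of 13 gene lists (rows) for each replicate number (columns) in low RFI liver; each cell compares 1 restricted with 1 ad libitum array. Fatty acid synthesis runs between -0.05 and -1.95, whereas the ribosomal list stays between 0.12 and 0.43.

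Of 22 listed clock genes 9 were tested and 8 lay below 0, with a median of -0.51 and USP2 as the only call. BHLHE40, a repressor in the clock loop, had 349, 377, 351, 181 and 259.7 in restricted and 410.0, 415, 410.1, 403 and 681 in ad libitum pigs. The groups did not overlap, though restricted pig 2 and ad libitum pig 4 were close (log2 -0.63, SE 0.227, limma adjusted p = 0.316). PER1 (log2 -0.48, SE 0.179, limma adjusted p = 0.336) and CRY2 (log2 -0.94, SE 0.399, limma adjusted p = 0.421), both repressors of the clock, had overlapping groups. ARNTL, the activator BMAL1, was the only member above 0 (log2 change 0.94, limma unadjusted p = 0.0302), and it is named after its value was seen. The labels used here give no time of sampling.

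Glucocorticoid-responsive genes had TSC22D3 as the only call among 28 tested and a median of -0.23, with 20 below 0. KLF9, a hormone-induced transcription factor, was at -0.81 (SE 0.242, limma adjusted p = 0.205), CEBPB, a liver transcription factor, at -0.80 (SE 0.256, limma adjusted p = 0.254) and ANGPTL4, an inhibitor of lipoprotein lipase, at -0.65 (SE 0.185, limma adjusted p = 0.168). A dimmer KLF9 probe set gave 0.39 (limma adjusted p = 0.793). ANGPTL4 groups did not overlap (890.1, 740.5, 437, 939 and 711 in restricted and 1184, 1335, 1066, 1141 and 964 in ad libitum pigs). FKBP5, a sensitive glucocorticoid target, had -0.59 (SE 0.329, limma adjusted p = 0.596).

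Extracellular matrix genes had COL6A3 as the only call among 34 tested (57 listed) and a median of -0.16. FBN1, the fibrillin of microfibrils, had 531, 482, 429.5, 392 and 338 in restricted and 685, 818, 582, 629.7 and 603 in ad libitum pigs, without overlap (log2 -0.62, SE 0.183, limma adjusted p = 0.203). FBLN1, a fibulin of the matrix, had -0.72 (SE 0.199, limma adjusted p = 0.16), and the matrix glycoprotein THBS2 had -0.54 (SE 0.181, limma adjusted p = 0.269). Markers of stellate cells and fibroblasts also had values below 0, and COL6A3 belongs to both lists. Of the 14 markers tested 13 were below 0. The summed intensity of the 14 was 10706 to 12234 in restricted pigs and 12413 to 15190 in ad libitum pigs, without overlap, and all 14 were bright enough to test. Their mean log2 intensity was 8.96 ± 0.101 in restricted pigs and 9.30 ± 0.0997 in ad libitum pigs (SD, n = 5 each, exact permutation p = 0.00794, the smallest this design allows, two-sided, adjusted p = 0.111 over 14 measures). Fewer cells of a type and less RNA per cell cannot be told apart in whole tissue, and the markers' part in the matrix result was not tested.

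Cell cycle genes had a median of -0.44 over 30 tested of 56 listed, with 24 below 0 and TOP2A as the only call. NUSAP1, a spindle protein, measured 294, 418, 299, 298 and 174 in restricted pigs and 1059.6, 626, 486, 528 and 432 in ad libitum pigs, and the groups did not overlap (log2 -1.05, SE 0.234, limma adjusted p = 0.0697). BIRC5, also called survivin, and STMN1, a regulator of microtubules, were likewise without overlap, with -0.75 and -0.77 (limma adjusted p = 0.203 and 0.158). The list mean difference was largest for numbers 1 (-0.74) and 4 (-1.01) and near 0 for numbers 2 and 5 (-0.09 each), a different order of pigs from that of the lipid genes.

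Fuel oxidation and glucose production had no call without the block. Fatty acid oxidation genes had a median of -0.08 over 28. CPT1A, which admits fatty acids to mitochondria, had 1210.0, 1914, 1149, 1439.8 and 2083 in restricted and 2503, 1964, 2083, 2518 and 3203 in ad libitum pigs. The groups overlapped, and the direction of the estimate was downward (log2 -0.67, SE 0.291, limma adjusted p = 0.436). ECI1, an isomerase of oxidation, had -0.45 (SE 0.139, limma adjusted p = 0.218). PCK1, a control point of glucose production, had -0.24 (SE 0.426, limma adjusted p = 0.924), within the spread between pigs.

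Pyruvate carboxylase (PC), which feeds pyruvate into glucose synthesis, was the exception with the block. Its intensities were 2994, 2616, 4537, 5413 and 6218 in restricted pigs and 1188, 1612, 3462, 1964 and 2513 in ad libitum pigs. Each restricted pig exceeded its number partner, although ad libitum pig 3 was above restricted pigs 1 and 2. The change was 1.04 (SE 0.291, limma adjusted p = 0.165), and PC passed with the block (limma adjusted p = 0.00988). Oxidative phosphorylation had 54 genes tested, none past the threshold and a median of 0.07. BHMT, which remethylates homocysteine, showed 0.46 (SE 0.146, limma adjusted p = 0.235) without overlap between groups. Its list, amino acid catabolism and urea cycle, lay mostly the other way, with a median of -0.16 over 40 tested and 27 below 0. At an unadjusted p under 0.05 by limma, 7 of the 40 were lower and 2 higher. IGF1 (log2 -0.36, SE 0.275, limma adjusted p = 0.743) and IGFBP2 (log2 0.80, SE 0.39, limma adjusted p = 0.502), a growth factor and a binding protein, did not pass. The 3 IGF1 probe sets ran between -0.91 and 0.43.

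Further genes with roles in degradation and detoxification did not pass without the block. TP53INP2, an autophagy regulator, was lower in all restricted pigs (104, 24.97, 109, 134 and 126) than in any ad libitum pig (139.6, 267, 228, 348 and 535), with -1.67 (SE 0.406, limma adjusted p = 0.101) and a limma adjusted p of 0.0493 with the block. Its restricted pig 2 was dim. SQSTM1 and GABARAPL1, both of the autophagy machinery, had -0.60 and -0.48 (limma adjusted p = 0.21 and 0.151). The autophagy and lysosome list had a median of only -0.08 over 39 tested, with 10 above 0. COQ6, of coenzyme Q synthesis, passed with the block (log2 -1.15, SE 0.242, limma adjusted p = 0.0578; limma adjusted p = 0.037 with the block), while another COQ6 probe set stood at -0.09 (limma adjusted p = 0.918). CYP2B22, a drug-metabolising cytochrome, had -2.04 (SE 0.582, limma adjusted p = 0.17). Its restricted pig 5 had an intensity of 26.4 against 256 to 462 in the other restricted pigs, and without that pig the change was -1.27. CYP3A29, another drug-metabolising cytochrome, stood on the other side of 0 at 0.53 (SE 0.152, limma adjusted p = 0.18). The 39 xenobiotic genes tested had a median of -0.07, with 14 above 0. PRDX6, a peroxiredoxin, had -0.61 (SE 0.146, limma adjusted p = 0.095).

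Markers of other cell types gave no call beyond COL6A3. Macrophage markers had a median of 0.15 over 14 and endothelial markers 0.02 over 14. Erythroid markers had a median of -0.59 over 5, with HBM, a globin, at -0.59 (SE 0.246, limma adjusted p = 0.418) and ALAS2, the first enzyme of heme synthesis in red cells, at -1.04 (SE 0.454, limma adjusted p = 0.439). Of the 5 erythroid markers 3 lay below 0 and 2 above it, among them the globin HBB at 0.35 (SE 0.151, limma adjusted p = 0.429). Neutrophil markers had a median of -0.59 over 2 and lymphocyte markers 0.14 over 12. Adipocyte markers had a median of 0.06 over the 3 tested. The mean log2 intensity of all 9 on the array was 6.02 ± 0.218 in restricted and 5.66 ± 0.257 in ad libitum pigs (SD, n = 5 each, exact permutation p = 0.0476, two-sided, adjusted p = 0.333 over 14 measures), but 6 of the 9 (ADIPOQ, LEP, CIDEA, LIPE, PPARG and RETN) were too dim to test.

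Low and high RFI liver were compared to see whether the diet response belonged to one line. In high RFI liver 4 probe sets passed (0.0255%), all lower, and 3 of them were among the 21 of low RFI liver, COL6A3 (high RFI change -0.81) and 2 without a symbol. The diets of each line were tested on separate pigs. Of the 21 calls 20 had the same sign in high RFI liver, and 15 of those had an unadjusted p under 0.05 there by limma. The shares over all probe sets were not counted. Both lines shared 1 estimate of the spread of each probe set, and a small spread favours a low p in each. The shared calls and the 15 are therefore not a separate test. In 20 of the 21 the change was larger in low RFI liver, but these were chosen on low RFI values, which favours that order. The change of TSC22D3 was -1.13 in low and -0.48 in high RFI pigs. That of ECHDC1 was -1.38 in low and -0.78 in high RFI pigs, and that of ME1 was -1.53 in low and -0.30 in high RFI pigs.

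The difference of the 2 diet effects was tested directly. By limma no probe set passed (0%, smallest adjusted p = 0.999), while 525 had an unadjusted p under 0.05 (3.35%). The named genes with the smallest p were DFFA (difference 0.95), ENTPD4 (1.15), TMCO3 (-1.02), KIAA0586 (-1.64), NOS2 (-2.15), PCMTD1 (-0.70), TADA2A (-1.11) and LOC106504372 (1.25). None of these was called in low RFI liver without the block. PCMTD1 passed there with it (log2 -0.64, SE 0.14, limma adjusted p = 0.0691; limma adjusted p = 0.0363 with the block). The median of fatty acid synthesis was -0.65 in low and -0.30 in high RFI pigs, but the low RFI value was -0.27 without restricted pig 5. That of ER translocation was 0.31 in low and 0.12 in high RFI pigs. Other lists had the larger change in high RFI liver. Cholesterol synthesis was at -0.21 in low and -0.34 in high RFI pigs, and extracellular matrix at -0.16 in low and -0.27 in high. Stellate cell and fibroblast markers were at -0.28 in low and -0.43 in high RFI pigs. The ribosomal median was 0.22 in both lines.

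**Figure D4:**
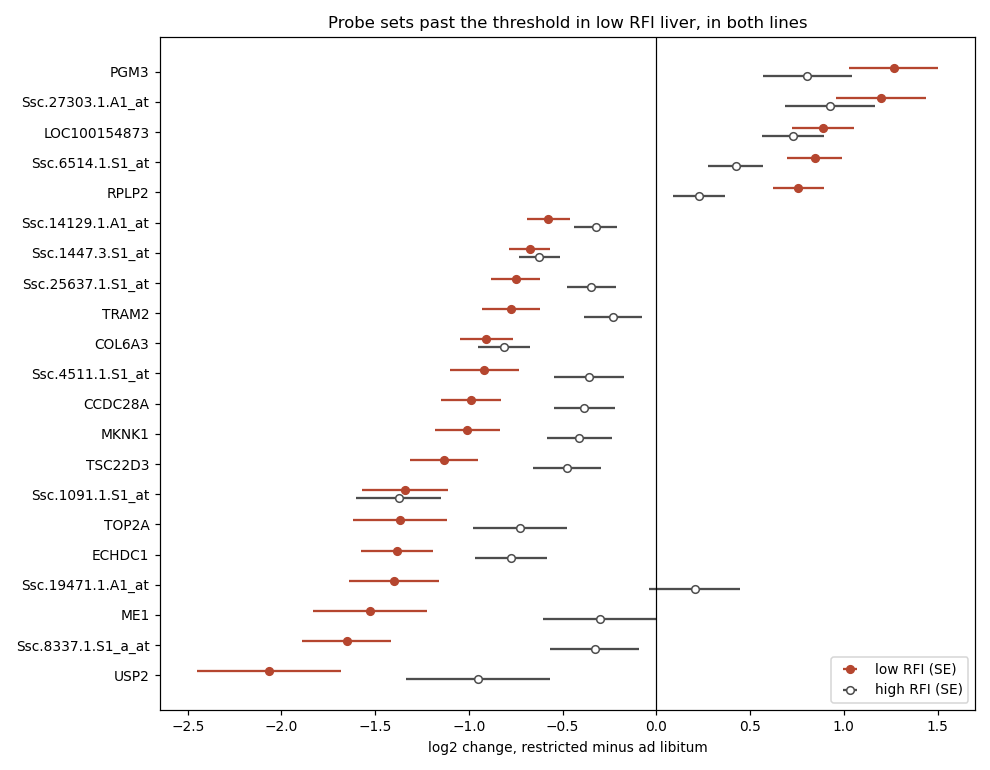
Log2 change, restricted minus ad libitum, with its SE, of the 21 probe sets past the threshold in low RFI liver, for low RFI (filled) and high RFI liver (open); probe sets without exactly 1 symbol carry their ID. In high RFI liver 20 of the 21 lie on the same side of 0, and the share of all probe sets that do was not counted.

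Liver and backfat of low RFI pigs responded differently in many genes. In a fit of all 40 arrays, the diet effect differed between the tissues for 599 of 14001 probe sets (4.28%), 388 with a larger value in liver (2.77%) and 211 with a smaller one (1.51%). With the block 1206 passed (8.61%), 690 larger (4.93%) and 516 smaller (3.69%) in liver. With numbers 3 to 5 alone 134 passed, and with numbers 1 and 2 alone none did by limma (1337 at an unadjusted p under 0.05). Without ad libitum backfat array 4, 363 passed. In backfat of the same line 1426 of 15498 probe sets changed (9.2%), 678 higher (4.37%) and 748 lower (4.83%). The 21 liver calls were chosen on liver values that the tissue test reuses, which favours a difference. Of these 21 calls 17 were tested in both tissues, and 6 of those differed between them, beside 4.28% of all probe sets tested.

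COL6A3 was among the calls that differed, with -0.91 in liver and 0.17 in backfat (liver minus backfat -1.08, SE 0.178, limma adjusted p = 0.000628). TSC22D3 was at -1.13 in liver and 0.18 in backfat (liver minus backfat -1.32, SE 0.255, limma adjusted p = 0.00288), and MKNK1 at -1.01 in liver and 0.01 in backfat (liver minus backfat -1.02, SE 0.247, limma adjusted p = 0.013). PGM3 (liver minus backfat 1.33, SE 0.28, limma adjusted p = 0.00545) and LOC100154873 (liver minus backfat 1.24, SE 0.345, limma adjusted p = 0.031) had liver changes of 1.27 and 0.89 and backfat changes of -0.07 and -0.35. ECHDC1 and ME1 had larger backfat changes, -2.45 and -2.97, but the tissue difference missed the threshold (limma adjusted p = 0.057 and 0.0539).

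The named genes with the smallest p for the tissue difference mostly had small changes in liver. MPC2, a mitochondrial pyruvate carrier, was at 0.13 in liver and -1.56 in backfat, SLC25A1, the citrate carrier, at -0.17 in liver and -2.35 in backfat, and PGLYRP2, a peptidoglycan amidase, at 0.40 in liver and -2.53 in backfat. AKR1CL1 (0.23 in liver and -2.12 in backfat), LOC595122 (0.44 in liver and -2.04 in backfat), the signal peptidase subunit SPCS1 (0.22 in liver and -0.69 in backfat) and GNPNAT1, of the same sugar pathway as PGM3 (0.40 in liver and -1.03 in backfat), complete them with COL6A3. All of these except COL6A3 missed the threshold in liver by limma.

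Gene lists also differed between the tissues. Of 54 oxidative phosphorylation genes 27 had a larger value in liver past the threshold, with medians of 0.07 in liver and -0.67 in backfat. For the proteasome it was 11 of 37 (medians 0.17 in liver and -0.29 in backfat), for ER translocation 12 of 46 (0.31 in liver and -0.11 in backfat), and for fatty acid synthesis 4 of 15 (-0.24 in liver and -1.32 in backfat over these 15). Ribosomal protein genes had none of 56 past the threshold (0.22 in liver and 0.10 in backfat). Of all 14001 probe sets 4.28% passed, 2.77% with a larger value in liver. With a share that small, none of 56 does not set the ribosomal list apart. The log2 GAPDH 3′ over 5′ ratio in backfat was 1.81 ± 0.702 in restricted and 1.11 ± 0.422 in ad libitum pigs (SD, n = 5 each, exact permutation p = 0.0952, two-sided, adjusted p = 0.190 over 2 measures), higher in the restricted array of 4 of 5 numbers. In liver it was 1.09 ± 0.320 in restricted and 1.05 ± 0.218 in ad libitum pigs (SD, n = 5 each, exact permutation p = 0.794, two-sided, adjusted p = 0.825 over 14 measures). Its part in the tissue differences was not tested. In backfat, hepatocyte markers had a median change of 1.27 over the 6 tested in both tissues and acute phase, complement and coagulation genes one of 0.91 over 25, and their part in the tissue differences was not tested.

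**Figure D5:**
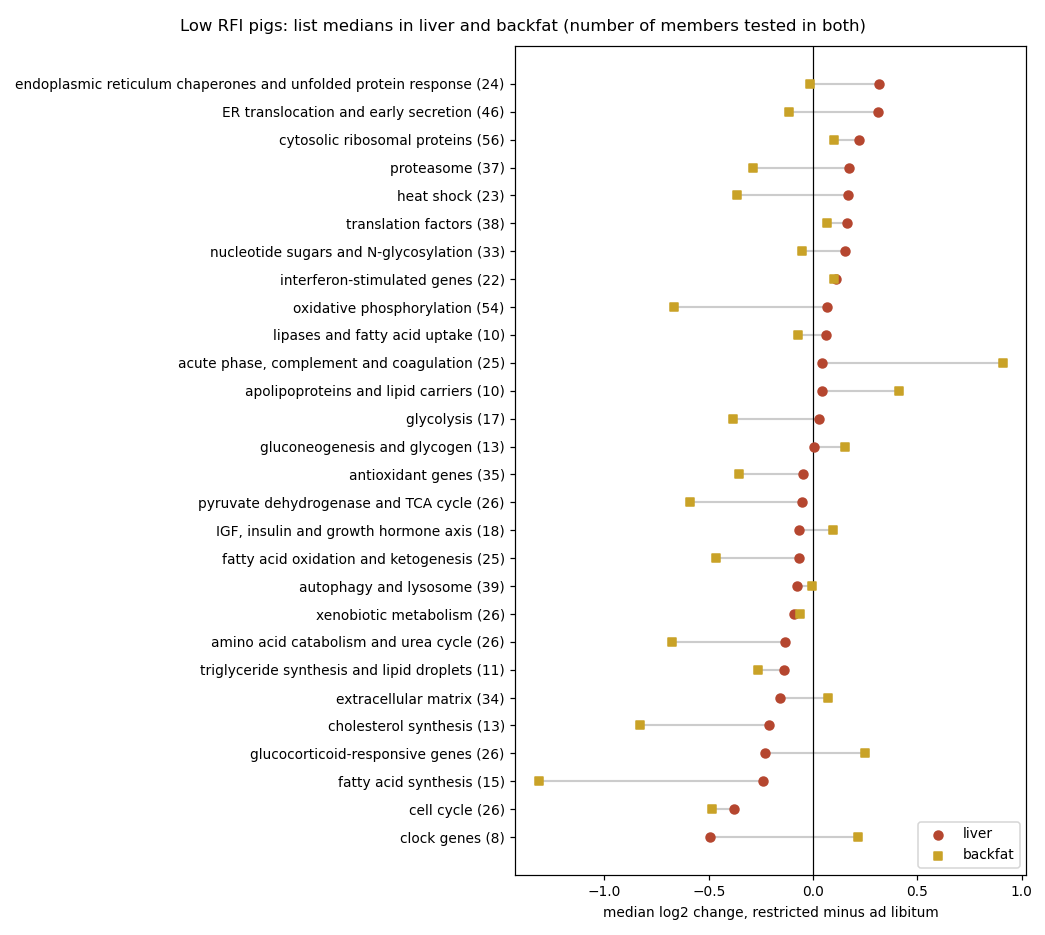
Median log2 change, restricted minus ad libitum, of gene lists in liver (circles) and backfat (squares) of low RFI pigs, over the members tested in both tissues (number in brackets, lists with at least 8). Oxidative phosphorylation lies at 0.07 in liver and -0.67 in backfat.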

How the data were processed

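Liver RNA of low RFI pigs was measured on 1-colour Affymetrix porcine arrays. The deposited values are linear intensities scaled per array by the authors: the mean after trimming 2% at each end was 500.13 to 500.15 on the 10 arrays. MAS5 and affy are named in the submitters' processing notes, without their roles. Array number limits the precision, and array medians were 134 to 151.

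Intensities were set on the log2 scale with no offset, and 124 control probe sets were left out. Symbols came from the platform annotation: 10069 probe sets had 1 symbol, 198 several and 13732 none, and 9961 had an Entrez ID in the RefSeq table. Probe sets above the 40th percentile of their own array on at least 5 of the 20 liver arrays were tested with limma 3.58.1 (R 4.3.3), as group means with an intensity trend, with Benjamini-Hochberg adjustment at 0.05. All 20 liver arrays, or all 40 arrays for the tissue comparison, shared 1 estimate of the spread. The script was tested on simulated data. Exact permutation tests listed every arrangement of the arrays, in Python 3.11.15 with pandas 2.3.3 and numpy 2.4.6, and figures used matplotlib 3.10.9. The backfat control ratios were compared after seeing the data.

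Same-numbered arrays of the 2 diets, by the labels' replicate numbers, had correlated deviations from their group means (0.119 to 0.299, all above 0.1). The numbers were taken as pairs on that ground, although only 3 of the 5 restricted arrays correlated best with their own number. Restricted array 1 correlated at 0.288 with ad libitum array 2. Restricted array 3 correlated at 0.201 with ad libitum array 4, against 0.189 with ad libitum array 3. Named were up to 12 calls per direction with the next smallest p filling up to 12, up to 4 members per list with the smallest p, 34 fixed genes, and 8 genes each for the line and tissue tests. Not all genes the rule takes are described. In lists a gene is its brightest probe set. Members and lists were chosen with earlier results of these data known. The alternatives were normalization, filter, offset, trend, block, set of numbers, arrays in the fit and leaving out each array.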

Additional observations from a re-analysis of the deposited data

Results flagged for a closer look

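Among 84 sets of 5 values, of named genes and array measures on each diet, 7 had a pig far from the rest. Chance gives about 1 in 20 in independent sets, but these come from the same arrays, so that rate is no fair measure here. In 5 of the 7 the pig was restricted pig 5. In that pig XBP1 was high, at an intensity of 12549, against 6883 to 7727 in the other restricted pigs. It was low for TSC22D3 (962), TRAM2 (489), DGAT2 (631) and PON3 (352). The other restricted pigs had 1594 to 1810.0 for TSC22D3, 701 to 795 for TRAM2, 2942 to 4638 for DGAT2 and 683 to 861 for PON3. PON3, a lactone hydrolase of liver, was also high in ad libitum pig 4 (10288, against 968 to 1288 in the other ad libitum pigs). ME1 was high in ad libitum pig 5 (605, against 254 to 326 in the others).

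The diet effect in low RFI pigs differed between liver and backfat, by limma's test of the difference, for 5 named calls. Of all probe sets tested in both tissues 4.28% differed. The named calls were chosen on liver values that this test reuses, which favours a difference. Liver minus backfat was 1.33 for PGM3, 1.24 for LOC100154873, -1.32 for TSC22D3, -1.02 for MKNK1 and -1.08 for COL6A3.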

How the results depend on the processing

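The count of 21 calls in low RFI liver became 11 without the intensity trend, 66 with the replicate block, 68 with the set of numbers as a covariate and 67 with the actin ratio as a covariate, which was chosen after seeing the data. It was 13 in numbers 3 to 5 and 0 in numbers 1 and 2 by limma (1293 at an unadjusted p under 0.05). With only the 10 arrays it was 2, and 0 with the replicate block as well by limma (2008 at an unadjusted p under 0.05); fewer samples then set the spread. Leaving out each array gave 7 to 28, and 0 to 1 for diet by line, the 1 without low RFI ad libitum pig 3. Quantile normalization, no filter, a stricter filter and an offset gave 26, 16, 30 and 22. For diet by tissue, 599 became 1206 with the replicate block, 977 with the set covariate, 134 in numbers 3 to 5 and 0 in numbers 1 and 2 by limma (1337 at an unadjusted p under 0.05), and leaving out each array gave 363 to 719. The GAPDH ratio difference (0.0449) turned to -0.0150 without restricted pig 1, -0.0229 without restricted pig 3 and -0.0354 without ad libitum pig 5, over a range of -0.0354 to 0.173. The cause of these shifts was not tested. Over 81 genes and their alternatives, 102 results lost and 61 gained the call, and 0 changed sign. Some alternatives, such as the block, leave the estimate itself unchanged, and many of the genes were chosen for a small p, which favours a stable sign. List medians did change sign, for endothelial markers in 7 of 23 alternatives and for hepatocyte markers in 5. Those of fatty acid synthesis and cholesterol synthesis changed sign in 1 each. Signal near background limits dim probe sets such as GMPPB.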
